A study of Mus musculus with 6 samples.

Results

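Transport pericytes are pericytes described by the membrane carriers they express, and 8 such solute carrier genes, out of 32285 genes in the matrix, are described here: Slc6a12, Slc6a13, Slc6a20a, Slc16a12, Slc22a8, Slc20a2, Slc1a3 and Slc12a7. They were taken by symbol and not by a threshold on any value. Of the 8, 5 belong to the list of transport genes that the study used. Their UMI counts, each UMI being 1 captured RNA molecule, were followed across cell classes and across 6 numbered libraries. The libraries came from male RGS5::GFP het mice of 8 to 12 weeks on a C57bl/6 background, in which GFP replaces 1 of the alleles of Rgs5, a gene of mural cells. All mice had permanent occlusion of the middle cerebral artery. The 6 groups were the contralateral and the ipsilateral cortex after 1, 12 and 24 h, with 1 library each, and the live cells sorted from them had been depleted of neurons. By the paper, fewer mice than libraries were used, so the libraries are not all from separate animals. It also names a different sequencer for the 24 h libraries than for those of 1 and 12 h. The sources used here do not tie a library number to a group, so cells were treated as 1 pooled sample, each library is given by its number alone, and no comparison of hemispheres or times was made.

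Pericytes wrap the capillary endothelium, and solute carriers move amino acids, osmolytes, ions and organic acids across their membranes. Slc6a12 (BGT1) carries betaine, an osmolyte, together with GABA, and Slc6a13 (GAT2) carries GABA and taurine. Slc6a20a (SIT1) takes up imino acids such as proline, Slc16a12 (MCT12) carries creatine, and Slc22a8 (OAT3) exchanges organic anions and belongs to the export machinery of brain barriers. Slc20a2 (PiT2) takes up phosphate, and its human counterpart is mutated in familial brain calcification. Slc1a3 (GLAST) is a glutamate transporter best known from astrocytes, and Slc12a7 (KCC4) moves potassium with chloride during volume regulation.

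The genes lie on mouse chromosomes 6, 8, 9, 13, 15 and 19 (GRCm38, GENCODE vM21). Slc6a13 (chr6:121300227-121337733) and Slc6a12 (chr6:121343076-121365775) are neighbours on the plus strand, 5342 bases apart. Slc6a20a (chr9:123634770-123678885, minus strand) lies 2204 bases from its paralog Slc6a20b, so that counts of the pair are uncertain where reads fit both. In pericyte-like cells Slc6a20b had 17 UMIs (5.82 CPM, 3.39–9.32). Slc22a8 (chr19:8591254-8611835) and Slc16a12 (chr19:34668403-34747289) are on one chromosome but on opposite strands.

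Promoter windows of 300 bases (250 before and 50 after a transcript start) from RefSeq, build GRCm38.p6, were found for 7 of the 8 genes. The windows of Slc6a20a (chr9:123678783-123679082, minus strand), Slc16a12 (chr19:34747279-34747578, minus strand) and Slc22a8 (chr19:8592932-8593231, plus strand) are shown because these 3 genes had the most UMIs in pericyte-like cells and were all lower in the response cells described further on. They are written 5′ to 3′ with motif matches in capitals.
Slc6a20a: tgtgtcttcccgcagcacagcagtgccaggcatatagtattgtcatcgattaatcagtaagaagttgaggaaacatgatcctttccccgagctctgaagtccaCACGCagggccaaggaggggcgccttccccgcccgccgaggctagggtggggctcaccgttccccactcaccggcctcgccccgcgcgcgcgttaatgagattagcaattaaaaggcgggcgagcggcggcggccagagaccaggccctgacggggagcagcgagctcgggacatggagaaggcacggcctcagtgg
Slc16a12: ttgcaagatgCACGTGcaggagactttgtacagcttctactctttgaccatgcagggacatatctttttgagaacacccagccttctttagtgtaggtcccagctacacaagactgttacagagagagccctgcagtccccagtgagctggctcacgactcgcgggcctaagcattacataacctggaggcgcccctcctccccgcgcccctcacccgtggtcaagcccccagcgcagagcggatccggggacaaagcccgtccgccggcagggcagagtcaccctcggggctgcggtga
Slc22a8: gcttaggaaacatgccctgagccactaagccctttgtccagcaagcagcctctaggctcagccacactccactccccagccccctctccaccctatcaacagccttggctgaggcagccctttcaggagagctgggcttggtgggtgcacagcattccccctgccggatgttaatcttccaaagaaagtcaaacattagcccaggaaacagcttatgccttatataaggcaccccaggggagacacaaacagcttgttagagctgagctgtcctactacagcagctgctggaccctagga
The letters searched on both strands were the hypoxia cores ACGTG (in 19.6% of 32851 windows) and GCGTG (32.4%), AP-1 TGANTCA (7.81%), the tonicity core TGGAAA (21.4%) and the forkhead letters TGTTTAC (3.65%). Slc16a12 held the palindrome CACGTG, which is an ACGTG on each strand, Slc6a20a held 1 GCGTG on its opposite strand, and none of the 5 motifs was in the window of Slc22a8. These are matches of letters only.

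Cells numbered 17357, with a median of 5338 UMIs, and library totals over all barcodes ranged from 12427757 to 40793772 UMIs. Clusters were named from marker lists, and 13 classes of 22 to 8129 cells resulted. Pericyte-like cells were 829 (4.78%), with 79, 77, 337, 141, 82 and 113 cells in libraries 1 to 6 and a median of 3293 UMIs. Among the markers that gave them this name, Pdgfrb reached 1584 CPM (UMIs per 1e6 UMIs of the same cells), Abcc9 1332 CPM and Atp13a5 1243 CPM. As these genes were used for the naming, their levels do not test it. Acta2, a smooth muscle gene that the study takes to be absent from pericytes, had 174 CPM, in 5.19% of the cells. Fibroblast markers were also present, with 5 of 6 above 0 and Pdgfra at 0. They summed to 397.7 CPM, from 211.5 to 1245 CPM by library. These sums include the response cells described below, at 1727 CPM, where the other pericyte-like cells had 234.1 CPM. Ependymal markers summed to 772.6 CPM, with 3 of 5 at 0, and oligodendrocyte markers to 358.4 CPM. Pairs of libraries shared 26 cell barcodes in all. Called doublets were 0.854% to 2.76% of the cells of a library and were kept. Intervals given with CPM are exact 95% Poisson intervals, those of ratios are exact conditional and those of shares are exact binomial (Clopper-Pearson). All cover counting error only, and no p-value was computed because the cells are 1 sample.

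Slc6a20a, Slc16a12, Slc22a8, Slc6a13 and Slc6a12 were highest in pericyte-like or fibroblast-like cells. Slc20a2, Slc1a3 and Slc12a7 had their highest levels in astrocyte-like or endothelial-like cells. A gene was called high in pericytes when its CPM there was at least 2 times that of every other named class of 20 or more cells, and 1.39% of all 14038 tested genes met this. Of the 8 members 1 met it, Slc16a12. This count depends on the fibroblast-like class of 31 cells. It was 3 when classes of 100 or more cells alone were compared, where 2.6% of all genes met the rule. It was 2 without library 1, where Slc6a20a joined at 2.06 times. It was 0 without library 4, 5 or 6, where Slc16a12 stood at 1.97, 1.87 and 1.53 times. The share of all genes with a library left out is not given.

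**Figure D1:**
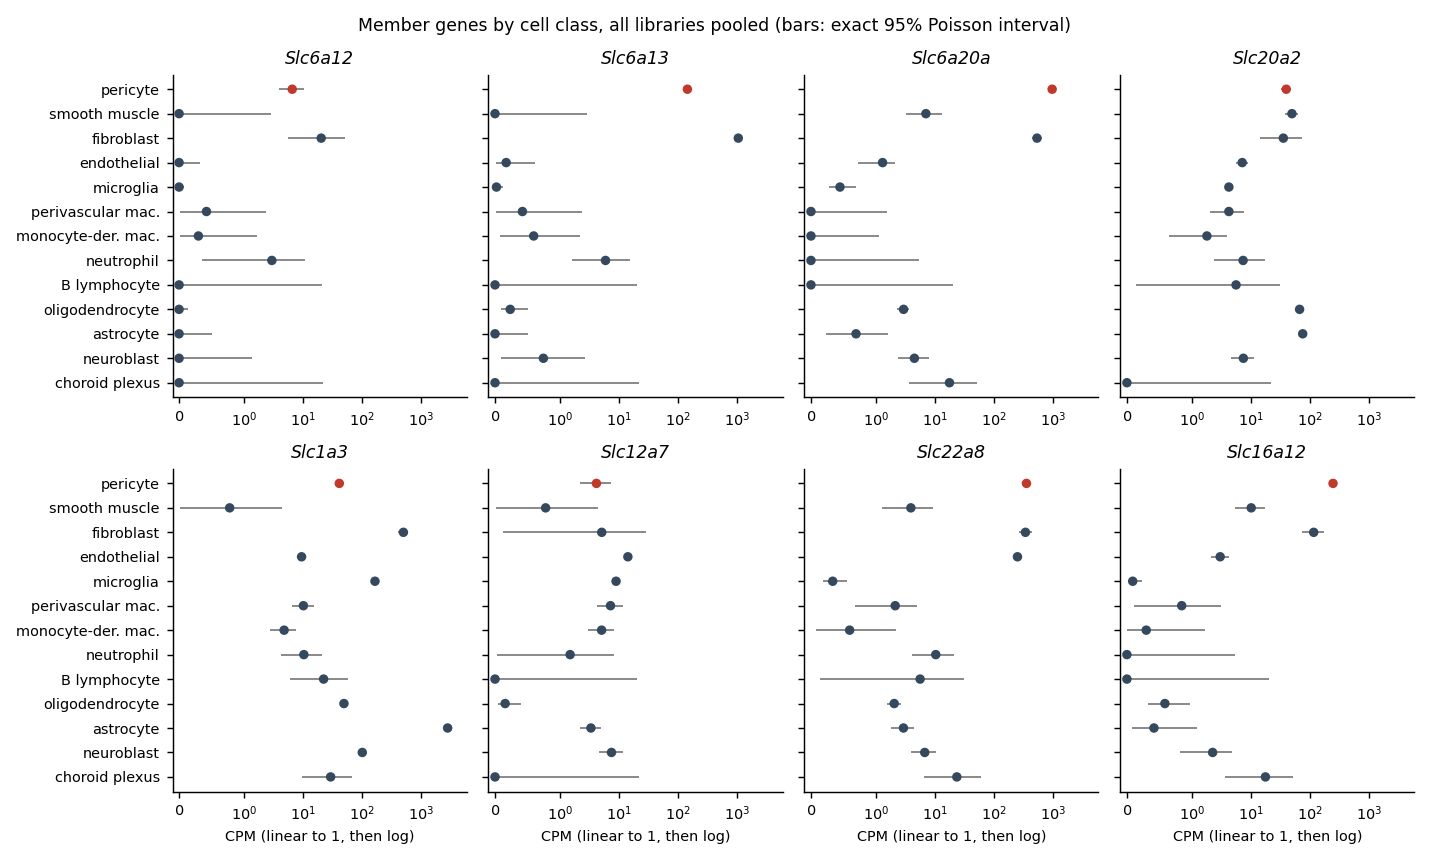
Level of each gene in 13 cell classes, in CPM with all libraries pooled (linear to 1, then logarithmic), with bars for the exact 95% Poisson interval and pericyte-like cells in red. Slc6a20a stood at 979 CPM in pericyte-like and 541 CPM in fibroblast-like cells and at 17.6 CPM or less in every other class, whereas Slc1a3 peaked at 2857 CPM in astrocyte-like cells.

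Slc6a20a, the imino acid carrier, reached 979 CPM (943–1015) in pericyte-like cells from 2859 UMIs, which were 85.8% of its UMIs in all cells. Fibroblast-like cells followed at 541 CPM (444–654), a ratio of 1.81 (1.49–2.21), and the next class, choroid plexus-like cells, had 17.6 CPM (3.62–51.3) from 3 UMIs. Smooth muscle-like cells, the other mural class, had 6.97 CPM (3.19–13.2). A UMI of Slc6a20a was found in 86.0% of pericyte-like cells (83.5–88.3) at a median depth of 3293 UMIs, against 0.487% of endothelial-like cells (0.260–0.832) at 4001.5 UMIs. After each cell was thinned to 1000 UMIs the shares were 59.2% and 0.0375%.

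Slc16a12, the creatine carrier, followed the same order in its highest classes but not in the lower ones. It had 248 CPM (230–266) in pericyte-like cells, 116 CPM (73.8–175) in fibroblast-like cells and 17.6 CPM (3.62–51.3) in choroid plexus-like cells. The ratio of pericyte-like to fibroblast-like cells was 2.13 (1.41–3.38). Choroid plexus-like cells, with 3 UMIs, did not differ beyond counting error from smooth muscle-like cells (ratio 1.74, 0.319–6.35). Over the 13 classes Slc16a12 and Slc6a20a had a Pearson r of 0.989 on log2(CPM + 10), and the genes most like Slc6a20a were Slc5a5 (0.991), Slc16a12 and Tmem45a (0.982). For Slc16a12 they were Slc6a20a, Slc5a5 (0.985) and Bmp5 (0.985). These values describe 13 classes that share libraries and differ in depth and cell number.

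Slc22a8, the organic anion exchanger, was shared by 3 classes. Pericyte-like cells had 358 CPM (337–380), fibroblast-like cells 344 CPM (267–436) and endothelial-like cells 252 CPM (243–261). The first 2 did not differ beyond counting error (ratio 1.04, 0.814–1.35, and 0.736 without library 6), and fibroblast-like exceeded endothelial-like cells 1.37 times (1.06–1.74). Every other class was at 23.4 CPM or less. By library, pericyte-like cells stood above endothelial-like cells in 6 of 6, by 1.06, 1.21, 1.34, 1.16, 1.89 and 1.71 times in libraries 1 to 6. In libraries 1, 2 and 4 the intervals of the 2 levels overlapped. The pericyte-like cells of libraries 4 and 6 include response cells, described below. Without them the levels there were 288 and 494 CPM, against 195 and 172 CPM in endothelial-like cells. Endothelial-like cells were not uniform. The cluster led by Itm2a, Slco1a4 and Abcb1a, genes of barrier capillaries, had 350 CPM (337–364) in 1850 cells. This interval overlapped that of pericyte-like cells (337–380), which include 59 response cells at 12.5 CPM. The pericyte-like level without them, given further on, is higher. The cluster led by Gkn3, Bmx and Sema3g, genes of arteries, had 115 CPM in 274 cells. The cluster with Ackr1, a gene of veins, Lcn2 and Lrg1 among its leading genes had 57.8 CPM in 544 cells. Of these cells 323 (59.4%) came from library 6 and 178 from library 4, and the part of the library in that level was not tested.

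Slc6a13, the GABA and taurine carrier, was higher in fibroblast-like than in pericyte-like cells and near 0 elsewhere. Fibroblast-like cells had 1062 CPM (923–1216) from 210 UMIs and pericyte-like cells 145 CPM (131–159) from 423 UMIs, a pericyte-to-fibroblast ratio of 0.136 (0.115–0.162). Neutrophil-like cells came next with 5.86 CPM from 4 UMIs, and no UMI was seen in 171 smooth muscle-like or 1167 astrocyte-like cells, where 3 counts would be 2.32 and 0.414 CPM. Of the pericyte-like cells 29.2% (26.1–32.4) had a UMI, as did 71.0% (52.0–85.8) of the fibroblast-like ones. Against classes of 100 or more cells alone, pericyte-like cells were 24.7 times higher than the next. The genes most like it over the classes were Ptgfr (r 0.995), Fhl2 (0.994) and Gm9947 (0.993), the last with at most 10.1 CPM in a class. Its neighbour Slc6a12, the betaine and GABA carrier, was near the limit of detection, with 31 UMIs in all cells. Of these, 19 were in pericyte-like cells (6.50 CPM, 3.92–10.2) and 4 in fibroblast-like cells (20.2 CPM, 5.51–51.8), which did not differ beyond counting error. Its most like genes were Slc6a13 (0.984), Dcn (0.976) and Mrap (0.974), values that rest on these few UMIs.

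Fibroblast-like cells were few and uneven, with 3, 7, 5, 2, 3 and 11 cells in libraries 1 to 6. Their Slc6a13 level was 2418, 1530.0, 2563, 141, 1526 and 335 CPM in that order, lowest in libraries 4 and 6. Those were also the only libraries with Il11 UMIs in fibroblast-like cells, 173 UMIs in 1 cell of library 4 and 11 UMIs in 2 cells of library 6. Their part in the fibroblast levels was not tested.

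Slc20a2, the phosphate carrier, was broad. Astrocyte-like cells had 75.6 CPM (69.4–82.2), oligodendrocyte-like cells 66.9 CPM (63.8–70.2), smooth muscle-like cells 49.6 CPM (38.2–63.3) and pericyte-like cells 39.7 CPM (32.8–47.6). Pericyte-like cells did not differ beyond counting error from smooth muscle-like cells, which were 1.25 times higher (0.905–1.71), or from fibroblast-like cells (35.4 CPM, 14.2–73.0), and fibroblast-like cells were 4.78 times (1.71–11.8) above the next class. Thinned to 1000 UMIs, 4.34% of pericyte-like cells (3.06–5.96) had a UMI, against 7.03% of astrocyte-like and 0.637% of endothelial-like cells. Its most like genes were Sept8 (0.932), Tmem14a (0.913) and Abca5 (0.913). Slc12a7, the potassium chloride carrier, was low everywhere, with 14.1 CPM (12.0–16.4) in endothelial-like, 8.86 CPM (8.01–9.77) in microglia-like and 4.11 CPM (2.12–7.18) in pericyte-like cells, the last from 12 UMIs. Among the endothelial clusters it stood at 10.1 CPM in the one led by Itm2a and 24.1 CPM in the one led by Gkn3. It had 19.5 CPM in the one with Ackr1 and Lcn2, whose cells came mostly from libraries 4 and 6. Its most like genes were Enc1 (0.898), Rab11fip5 (0.897) and Sertad2 (0.876).

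Slc1a3, the glutamate transporter, had 2857 CPM (2818–2896) in astrocyte-like cells, 506 CPM (412–615) in fibroblast-like, 166 CPM (162–170) in microglia-like, 101 CPM in neuroblast-like, 49.3 CPM (46.6–52.1) in oligodendrocyte-like and 41.1 CPM (34.1–49.1) in pericyte-like cells. The last 2 did not differ beyond counting error. Smooth muscle-like cells had 1 UMI. In microglia-like cells its level was lowest, 62.5 CPM, in the cluster led by Lpl, Ccl12, Mmp12 and Spp1, genes of activated microglia. It was 206 and 249 CPM in the pair of clusters that had P2ry12, a gene of resting microglia, among their leading genes. Of the 1438 cells in the cluster led by Lpl, 807 came from library 4 and 580 from library 6. The part of the library in that level was not tested. Microglia-like cells of libraries 1 to 6 held 263, 285, 212, 126, 164 and 63.6 CPM. Its most like genes over the classes were Usp40 (0.934), Tm9sf4 (0.925) and Mtx3 (0.921).

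Free RNA was read from barcodes with 1 to 50 UMIs. Of the 6 members with 10 CPM or more in either, 4 were at least 2 times higher in pericyte-like cells than there (21.2% of 10134 genes tested by the same rule were), and Slc6a12, below that level, was also higher. The ratios were 74.7 (64.9–86.4) for Slc6a20a, 81.1 (60.7–111) for Slc16a12, 18.7 (16.4–21.3) for Slc22a8, 41.5 (31.3–55.8) for Slc6a13 and 34.8 (10.2–184) for Slc6a12, the last on 3 UMIs of free RNA. For Slc20a2 pericyte-like cells stood at 0.953 times (0.776–1.16) the free level, for Slc12a7 at 1.24 times (0.605–2.36) and for Slc1a3 at 0.153 times (0.126–0.183). The level in near-empty barcodes is not the amount a cell receives. For Slc1a3 it was therefore read beside Slc1a2 and Aldoc, 2 astrocyte genes.

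In near-empty barcodes there were 0.503, 0.467, 0.396, 0.343, 0.451 and 0.261 Slc1a3 UMIs per Slc1a2 UMI in libraries 1 to 6, close to astrocyte-like cells, with 0.491, 0.505, 0.375, 0.366, 0.425 and 0.333. Pericyte-like cells had 0.423, 1.27, 0.534, 0.241, 13 and 4. In library 5 this came from 26 Slc1a3 and 2 Slc1a2 UMIs (3.26–113) and in library 6 from 8 and 2 UMIs (0.798–38.7). The intervals of libraries 5 and 6, and that of library 2 (0.537–3.10) by a small margin, lay above both other sources. Those of libraries 1, 3 and 4 included the ratio of free RNA. Of the 187 Slc1a2 UMIs in pericyte-like cells, 164 were in 40 cells of mural subcluster 0, described below. Libraries 5 and 6 gave 1 and 0 cells to it, and the part of this in their ratios was not tested. The 757 pericyte-like cells with no UMI of Slc1a2 or Aldoc held 38.2 CPM (31.2–46.4) of Slc1a3, and the 2483 endothelial-like cells with neither held 6.08 CPM (4.70–7.73). A cell without these UMIs can still hold free Slc1a3, and the part of free RNA in the Slc1a3 level was not tested.

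**Figure D2:**
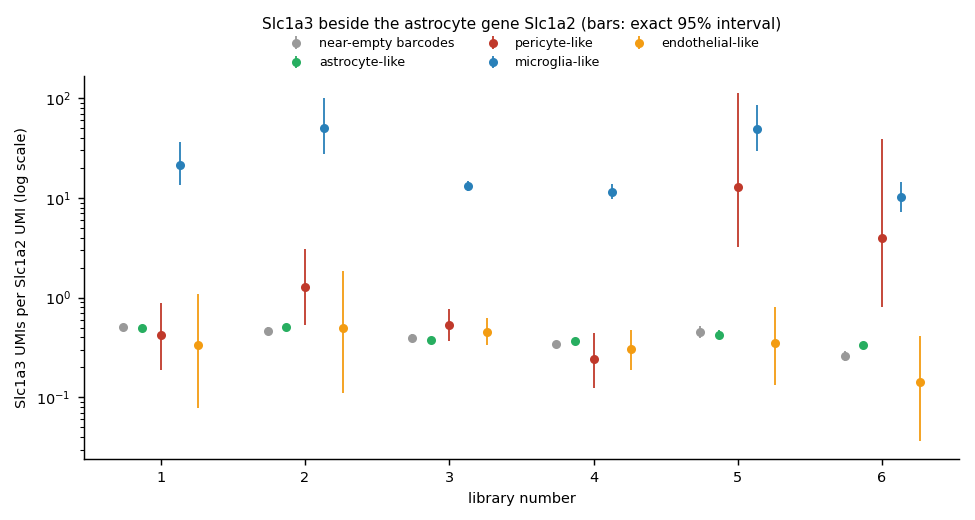
Slc1a3 UMIs per Slc1a2 UMI (logarithmic axis) for each numbered library, in near-empty barcodes and 4 cell classes, with bars for the exact 95% interval. Near-empty barcodes and astrocyte-like cells lie between 0.261 and 0.505, microglia-like cells lie above 10, and pericyte-like cells of library 5 lie at 13.

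Between libraries, the levels in pericyte-like cells differed by at least 2 times for 6 of the 6 members with 10 CPM or more there. So did 65.1% of the 8555 genes at that level, and the share was 62.7% outside the response cells described below, which only libraries 4 and 6 held. Slc6a13 stood at 178, 262, 187, 152, 46.0 and 35.7 CPM in libraries 1 to 6, and at 192 and 60.8 CPM in libraries 4 and 6 without the response cells. Libraries 5 and 6 were the low pair, with upper bounds of 75.8 and 57.2 CPM against lower bounds of 121 CPM or more elsewhere. Within the subcluster numbered 1, which held cells of all libraries, Slc6a13 was again lower in libraries 5 and 6 (53.0 and 44.6 CPM) than in libraries 1 and 2 (150 and 239 CPM). In subcluster 3, which also held cells of all libraries, library 5 was low (35.1 CPM, 7.24–102), but library 6 had 195 CPM (78.5–402) from 14 cells, beside 251, 262 and 207 CPM in libraries 1, 2 and 3.

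Slc6a20a had 1111, 1101, 1293, 785, 919 and 378 CPM in libraries 1 to 6, and 990 and 637 CPM in libraries 4 and 6 without response cells, where library 6 stayed lowest. Slc22a8 had 380.1, 397, 370.4, 226, 585 and 294 CPM, highest in library 5. Without response cells library 6 rose to 494 CPM and library 4 to 288 CPM. Slc16a12 had 302, 253, 205, 211, 414 and 246 CPM, also highest in library 5, and its extremes were 2.02 times apart (1.62–2.50), at the threshold.

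Slc20a2 ran from 57.8, 22.6, 65.5, 27.8 and 18.4 to 6.30 CPM in library 6, the last from 3 UMIs, and a ratio of 10.4 (3.42–51.6) separated libraries 3 and 6. Slc1a3 had 45.5, 63.2, 42.1, 25.9, 79.7 and 16.8 CPM in libraries 1 to 6, while Slc1a2 had 107, 49.7, 78.9, 107, 6.13 and 4.20 CPM in the same cells. Astrocyte markers summed to between 8.40 and 155 CPM in pericyte-like cells of a library and to 15440 CPM in astrocyte-like cells. Slc6a12 and Slc12a7 were not counted here, with 6.50 and 4.11 CPM over all pericyte-like cells and no library above 11.7 and 13.5 CPM.

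**Figure D3:**
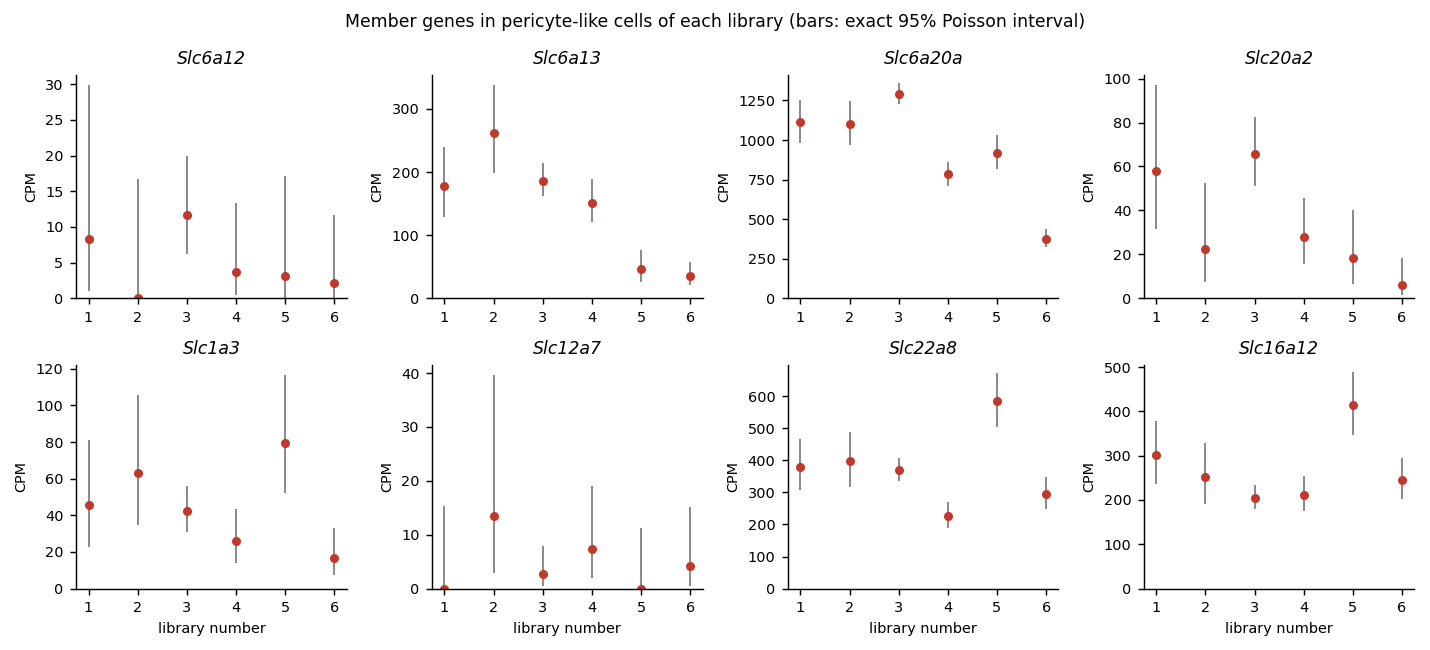
CPM of each gene in pericyte-like cells against library number, with bars for the exact 95% Poisson interval. Slc6a13 lay at 46.0 and 35.7 CPM in libraries 5 and 6 and at 152 CPM or more in the others, and Slc22a8 was highest, at 585 CPM, in library 5.

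Mural cells fell into 10 subclusters, formed without the 8 genes, their family relatives or any list gene. Subclusters 0, 1, 3 and 4 were pericyte-like, with 342, 211, 137 and 80 cells. Subcluster 5 had 59 cells led by Il11, a cytokine of the IL-6 family, and by Saa3, Ccl7 and Ednrb, and these are called response cells. They are counted among the pericyte-like cells unless stated. Subcluster 2 was smooth muscle-like, and 4 subclusters with 125 cells stayed unnamed. Subcluster 0 drew 70.8% of its cells from library 3, so its pooled levels are mostly those of that library, and its leading genes included Slc1a2 and Aldoc. In its 242 cells of library 3 and 90 cells of library 4, Slc6a13 had 230.4 and 229.9 CPM. Slc6a20a had 1390 and 1064 CPM there, and Slc20a2 72.5 and 30.65 CPM.

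Among the first 4, Slc6a13 had 233, 105, 186 and 16.3 CPM in subclusters 0, 1, 3 and 4, and Slc6a20a 1297, 916, 1128 and 764 CPM. Subclusters 0 and 1 drew mostly on different libraries. The former had 242 and 90 of its 342 cells from libraries 3 and 4. The latter had 39, 42, 53 and 61 of its 211 cells from libraries 1, 2, 5 and 6. The part of the library in their difference was not tested. Subcluster 4 stood out by Acta2, the actin of smooth muscle, at 1534 CPM, where subclusters 0, 1 and 3 had 0, 12.6 and 2.70 CPM. Against the other 3 together, Slc6a13 in subcluster 4 was at a ratio of 0.0900 (0.0291–0.212) and Slc1a3 at 0.133 (0.0159–0.490), whereas Slc6a20a was at 0.671 (0.584–0.767) and Slc16a12 at 0.629 (0.467–0.831). Slc22a8 lay between, at 0.417 (0.312–0.548). Within library 3 alone, which gave 53 of the 80 cells, the ratios were 0.108 for Slc6a13, 0.0950 for Slc1a3, 0.574 for Slc22a8, 0.647 for Slc6a20a and 0.735 (0.492–1.07) for Slc16a12.

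Response cells held fewer UMIs of these carriers than other pericyte-like cells. Slc22a8 stood at 12.5 CPM (4 UMIs) against 401 CPM, a ratio of 0.0312 (0.00848–0.0801), and Slc6a20a at 40.6 CPM (13 UMIs) against 1094 CPM, a ratio of 0.0371 (0.0197–0.0636). Slc6a13 stood at 6.25 CPM (2 UMIs) against 162 CPM, a ratio of 0.0386 (0.00466–0.140). Slc16a12 kept more, 84.3 CPM against 268 CPM, a ratio of 0.315 (0.206–0.462). Slc20a2 had 9.37 CPM (3 UMIs) against 43.4 CPM (0.216, 0.0438–0.647) and Slc1a3 15.6 CPM (5 UMIs) against 44.2 CPM (0.353, 0.113–0.849). Slc6a12 and Slc12a7 had no UMI in 59 cells, where 3 counts would exceed the level of the other cells.

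In all, 6 of the 6 tested members were at least 2 times lower, where 17.3% of 8555 tested genes were. None of them was higher, where 8.6% were. Slc6a12 and Slc12a7 were below the level for testing, 10 CPM over both groups pooled. Most UMIs there came from the 770 other cells, so a gene high in these alone could pass. In response cells Slc6a13 (6.25 CPM) and Slc20a2 (9.37 CPM) lay under 10 CPM. The filter thus favours genes called lower over genes called higher. The response cells were set apart by clustering, so these counts are a description without a test. Response cells were the deeper ones, with a median of 4935 against 3217.5 UMIs.

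The libraries that held response cells gave the contrast separately. In library 4, with 26 response and 115 other cells, 4 of 6 tested members were at least 2 times lower (background 10.6%). Slc6a20a was at 89.1 against 990 CPM, Slc22a8 at 16.2 against 288 CPM, Slc6a13 at 16.2 against 192 CPM and Slc16a12 at 89.1 against 247 CPM. In library 6, with 33 response and 80 other cells, the same 4 were lower, of 5 tested members (background 14.5%). Slc6a20a was at 10.2 against 637 CPM, Slc22a8 at 10.2 against 494 CPM and Slc16a12 at 81.3 against 361 CPM. Slc6a13 had no UMI against 60.8 CPM, a ratio of at most 0.344. Slc20a2 and Slc1a3 could not be called lower within a library. The other cells had 33.6 and 28.8 CPM of them in library 4 and 3.58 and 17.9 CPM in library 6. These values are under 2 times the level of 3 counts in response cells, the least that a call used. The ratios were 0.241 (0.00571–1.59) and 0.563 (0.0612–2.53) in library 4 and 2.84 (0.148–168) and 0.852 (0.132–4.38) in library 6. Against the other cells of libraries 4 and 6 together, 5 genes were called (background 16.9%), Slc1a3 no longer being among them.

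**Figure D4:**
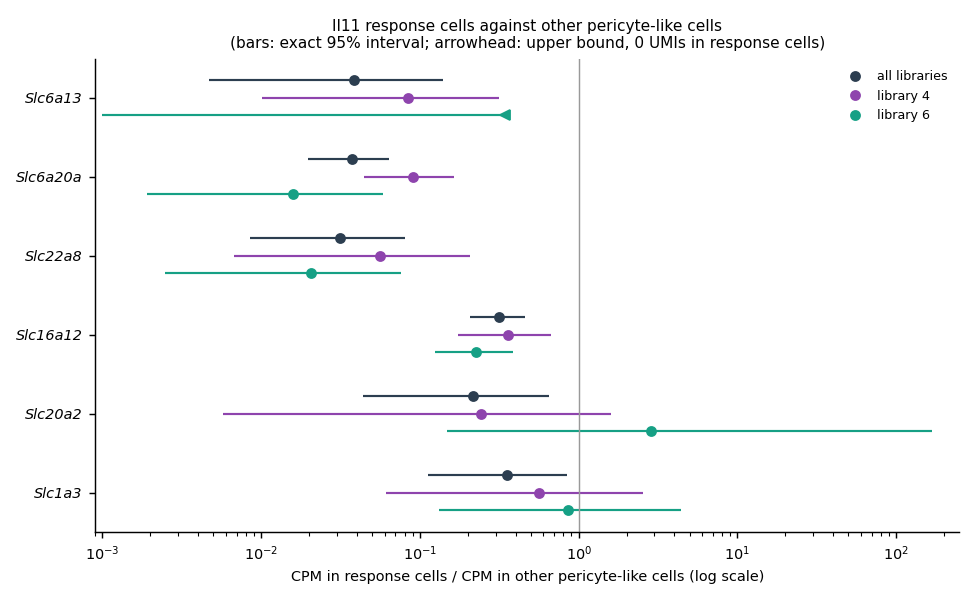
Ratio of the CPM in response cells to that in other pericyte-like cells (logarithmic axis), over all libraries and within libraries 4 and 6, with bars for the exact 95% interval and an arrowhead for the upper bound where response cells had no UMI. The intervals of Slc6a13, Slc6a20a, Slc22a8 and Slc16a12 lie below 1 in all 3 cases, and those of Slc20a2 and Slc1a3 cross 1 within each library.

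The shares of cells with a UMI were in the same order for 5 carriers. A UMI of Slc6a20a was present in 16.9% of response cells and 91.3% of the others, and after thinning to 1000 UMIs in 10.2% and 63.0%. For Slc22a8 the thinned shares were 3.39% and 34.0%, for Slc16a12 3.39% and 22.3%, for Slc6a13 0% and 13.2%, and for Slc20a2 1.69% and 4.55%. For Slc1a3 the order turned after thinning, with 5.08% (1.06–14.15) of the response cells, 3 cells, against 3.25% of the others. That interval includes the share of the others. Before thinning, 8.475% of response cells and 11.8% of all pericyte-like cells had a UMI of Slc1a3. Of the 59 response cells 31 had no UMI of any of the 8 genes, against 19 of 770 other pericyte-like cells, and 164 of the latter had UMIs of 4 or more of them. In the other cells, thinned, cells with both carriers of a pair were set against the product of their frequencies within libraries. Among 28 pairs of genes, 8 had 10 or more cells with both, and their counts were 0.813 to 1.15 times that product. As pairs were kept by the observed count, those found together less often could drop out. Slc20a2 with Slc22a8, left out in this way, had 8 such cells where the product gave 11.9 (0.671 times).

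**Figure D5:**
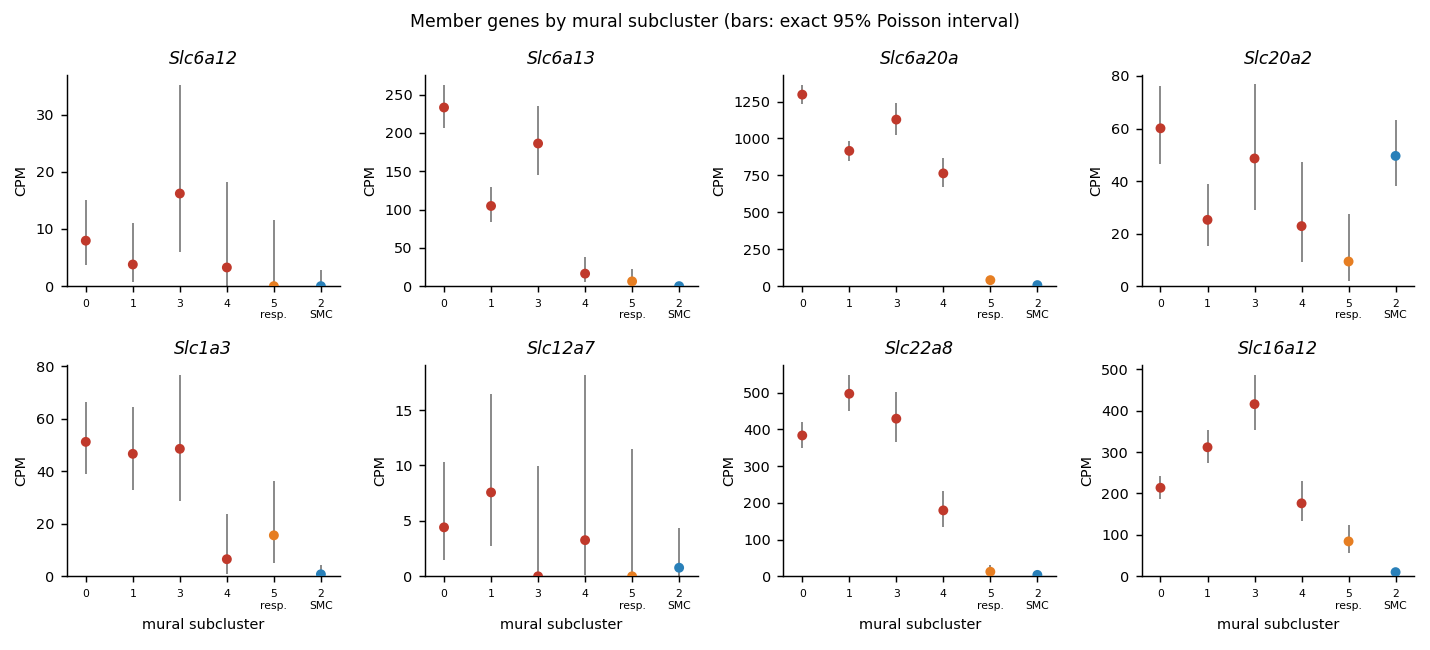
CPM of each gene in the pericyte-like subclusters 0, 1, 3 and 4 (red), the response subcluster 5 (orange) and the smooth muscle-like subcluster 2 (blue), with bars for the exact 95% Poisson interval. Slc6a13 was at 16.3 CPM in subcluster 4, where Slc6a20a was at 764 CPM, and in subcluster 5 they were at 6.25 and 40.6 CPM.

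Most pericyte identity genes were lower too. Of 9 such genes, 7 were at least 2 times lower in response cells, among them Atp13a5 (116 against 1382 CPM), Cspg4 (65.6 against 610.5 CPM), Higd1b (434 against 2314 CPM) and Vtn, an adhesive matrix protein (5423 against 20450 CPM). The remaining pair, the potassium channel subunits Kcnj8 (1656 against 1746 CPM) and Abcc9 (925 against 1382 CPM), did not reach the threshold. Within libraries 4 and 6 it was 5 and 7 of the 9. Their median difference was -1.91 on log2(CPM + 10), that of the 6 tested members -2.48 and that of all tested genes -0.177. Fibroblast markers summed to 1727 CPM in response cells and 234 CPM in the others, with Col1a1 and Pdgfra at 0 in response cells, and to 14400 CPM in fibroblast-like cells. Astrocyte markers summed to 18.7 and 101 CPM. The part of either in the carrier levels was not tested. Fewer molecules per cell and a larger total of other RNA cannot be told apart in CPM alone. Counts per cell are not scaled to that total. By these, 31 of 59 response cells had no UMI of any member gene, against 19 of 770 other pericyte-like cells. The response cells were the deeper ones, with a median of 4935 against 3217.5 UMIs. The part of a larger total in the lower CPM was not tested.

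Other genes of the same pathways were counted from lists. Of 70 family relatives (other Slc1a, Slc6a, Slc12a, Slc16a, Slc20a and Slc22a genes) 35 were tested over the classes and 0 were at least 2 times higher in pericyte-like cells than in every other class. The 3 with the highest level there were Slc12a2, the sodium potassium chloride importer (619 CPM, and 828 CPM in oligodendrocyte-like cells), Slc1a5, a neutral amino acid exchanger (102 CPM), and Slc6a17, a vesicular amino acid carrier (88.3 CPM, and 62.0 CPM in smooth muscle-like cells). In response cells 7 of 13 tested relatives were lower and 1 higher, with Slc12a2 at 215 against 669 CPM, where 17.3% of all genes were lower. Within library 4 only 2 of 13 were lower (10.6% of all genes) and 1 higher, and within library 6 it was 4 of 14 (14.5%) and 2.

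Of all tested genes, 17.3% were lower in response cells and 8.6% higher. Within library 4 10.6% were lower, and within library 6 14.5%. Of the osmolyte and cell volume genes 5 of 13 were lower, with Slc5a3, the myo-inositol carrier, at 3.12 CPM (1 UMI) against 26.9 CPM. In that list 1 gene was higher, the anion channel subunit Lrrc8d, at 65.6 against 26.5 CPM. Within library 4 it was 2 lower and 1 higher of 13, and within library 6 it was 3 lower and 3 higher of 13. In GABA handling 1 of 2 tested genes was lower, Abat, the GABA transaminase (6.25 CPM, 2 UMIs, against 43.8 CPM), with 1 of 2 in library 4 and 0 of 2 in library 6. Of the phosphate and calcification genes none of 3 tested moved by 2 times over all libraries and 1 was higher within library 4. Pdgfrb, the receptor of that list, was high in pericyte-like cells against every class, but it is a marker that named them. Of the organic anion, creatine and imino acid genes 3 of 8 were lower and 3 higher, with 2 and 3 of 8 in library 4 and 3 and 2 of 7 in library 6. Gatm and Gamt, the enzymes of creatine synthesis, were at 59.4 against 1283 CPM and 31.2 against 170 CPM, and the creatine carrier Slc16a12 is among the genes lower in the same cells. Slc7a11, the cystine carrier, was at 156 against 3.84 CPM. On the list of transport genes the study used, 3 of 3 tested genes were lower, where 17.3% of all genes were. All 3 are members (Slc20a2, Slc1a3 and Slc6a13) and were already counted above. Within libraries 4 and 6 it was 1 of 3 and 1 of 2, where Slc20a2 and Slc1a3 were too low for a call. Outside the pericyte identity genes (8 of 9) and Pdgfrb, no gene of these lists was at least 2 times higher in pericyte-like cells than in every other class. Pdgfrb, Abcc9, Kcnj8, Atp13a5, Vtn, Higd1b and Ndufa4l2 were markers that named the class, so their high level there follows from the naming.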

How the data were processed

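The authors deposited 1 matrix of UMI counts for all 6 libraries, unfiltered, from Cell Ranger 5 and aggr, run by their methods to normalize for sequencing depth, so reads may have been thinned. The submitters' processing notes name the mm10 build, which is GRCm38. The labels name more than one kit version. The library of a barcode is the number after it. A barcode counted as a cell when its UMIs reached 0.1 of the value at percentile 99 among the top 3000 barcodes of its library, 200 or more features were seen and mitochondrial counts made up no more than 10%. Counts were log-normalized (scale 10000), and 2000 variable genes, 30 principal components (15 for mural cells), 20 neighbours and Leiden clustering at resolution 0.8 followed (Python 3.11.15, scikit-learn 1.9.0, leidenalg 0.10.2, igraph 0.11.9). Members, relatives and list genes were left out of the variable genes. Clusters were named from listed markers, with 3 or more raised 2 times. Levels are summed UMIs per 1e6 (CPM). A gene was tested when it had 10 CPM, in a class for classes and over the cells compared otherwise. In calls between libraries and in response cells, a lower level of fewer than 3 counts was set to 3 counts. Calls between classes used no such floor. Genes named besides the members are the 3 highest relatives, called list genes, the 3 genes most like each member, and Slc1a2 and Aldoc. The members and lists were chosen with earlier results of these data known, and cell names were rebuilt here, so differences from the study may come from them. The ratio and thinning steps were tested on simulated counts. Alternatives covered the cell call, doublets, variable genes, resolution, each library left out, mean CPM of cells, free RNA, fold thresholds, class size and depth. One gene of the study's transport list is not reported here.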

Additional observations from a re-analysis of the deposited data

How the results depend on the processing

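The count of members at least 2 times higher in pericyte-like cells than in every other class, 1 gene, was 0 to 2 with 1 library left out, 2 at a fold threshold of 1.5 (2.39% of all genes), 0 at a threshold of 3 (0.776%), 0 with CPM averaged over cells, 3 with classes of at least 100 cells (2.6%), 0 with classes from the clustering of all cells and 2 with the response cells left out (the last pair chosen after seeing the data). The share of all genes called was 2.25% without the filter on low values. The count lower in response cells, 6, was 4 to 6 in every alternative, 4 without library 6. The counts between libraries (5 or 6) and above free RNA (5, with Slc6a12) stayed within those values. Ratios crossed 1 for Slc6a13 and Slc6a12 against the next class (24.7 and 2.22, classes of at least 100 cells), for Slc22a8 against the next class (0.736 without library 6 and 0.988 with CPM averaged over cells), for Slc20a2 in response cells within library 6 (2.84) and for Slc1a3 in response cells thinned to 1000 UMIs (1.57) or against subcluster 4 alone (2.39). The cause was not tested, except that the first pair drops the 31 fibroblast-like cells. Of the ratios between classes, these included, 143 stayed within their counting interval, 8 left it and 1 more reversed. Of those in response cells 173 stayed, 15 left it and 3 more reversed. Against single pericyte-like subclusters, and against the other cells of the response libraries, alternatives were also chosen after seeing the data. No paired analysis was possible because library numbers carry no group and no result comes from a test. Depth limits Slc6a12 and Slc12a7, with 19 and 12 UMIs in pericyte-like cells, and Slc20a2 and Slc1a3 in response cells.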
